A study of Mus musculus with 12 samples.

Results

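The genes described are 10 non-collagen genes of skin fibroblasts, taken by name with every probe set of the symbol: the transcription factors Twist1, Twist2 and Prrx1, the receptors Pdgfra and Pdgfrb, the small proteoglycans Lum and Dcn, the elastic fibre protein Mfap4, and the enzymes Lox and Mmp2. All 10 symbols were found, with 22 probe sets, among 18193 genes and 45037 probe sets that are not controls. RNA had been measured on 12 Affymetrix arrays of mouse back skin cells, with 3 sorted fractions, 2 genotypes and 2 numbered sets. HG (hair germ) and bulge are the compartments that hold the hair follicle stem cells, and TK is total skin keratinocytes.

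The mice were females of postnatal day 72 to 74 on a mixed C57BL/6 and CD1 background. The genotypes were labelled TßRII-Het and TßRII-cKO, for the type II TGF-beta receptor, and cells of every group were sorted with Rosa26-YFP, P-cadherin and CD34. HG and bulge of set 1 were labelled quiescent in both genotypes. In set 2 they were labelled activated in TßRII-Het and aberrantly quiescent in TßRII-cKO. State and set therefore cannot be told apart for HG and bulge, and no state was given for TK. The labels do not name the Cre driver, and they do not give the number of mice per array or tie the 3 fractions of a set to shared animals. The p-values below measure the spread between arrays, which may in part be technical.

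Fibroblasts build the collagen and elastic network of the dermis that surrounds each follicle, whereas the fractions were sorted as compartments of the epithelium. Their content of other cells was not tested. Twist1, Twist2 and Prrx1 are transcription factors of mesenchyme. Pdgfra and Pdgfrb are the receptors of platelet-derived growth factors, which epithelial cells of the follicle can release towards the dermis. Lum and Dcn encode lumican and decorin, small leucine-rich proteoglycans that bind collagen fibrils and set their spacing, and Dcn protein can also bind TGF-beta. Mfap4 attaches to elastic microfibrils, Lox cross-links collagen and elastin, and Mmp2 is a gelatinase.

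The sort and the targeted gene were read first. Cd34, the sort marker of the bulge, had a log2 signal of 14.42 to 14.79 in the 4 bulge arrays, 7.65 to 8.69 in HG and 10.03 to 11.30 in TK. Cdh3, which encodes P-cadherin, lay at 9.22 to 10.61 in HG and at 8.02 to 9.10 in bulge. Tgfbr2, the targeted receptor gene, lay at 10.35 to 12.39 in TßRII-Het arrays and at 11.31 to 12.14 in TßRII-cKO arrays, and its difference between genotypes was 0.24 ± 0.16 (log2, SE; limma adjusted p = 0.67). The position of its probe set relative to the deleted part was not given in the sources used here, so this is no check of the labels. The array of activated TßRII-Het HG stood apart in its epithelial genes. Of 12 keratinocyte markers, 9 were lowest there among the 4 HG arrays, and the summed signal of all 12 was 142346, against 317622 on the highest HG array. Bulge minus HG moved most without its pair of arrays for Dcn, Pdgfra and Mmp2, whose values without it are given below. In bulk RNA of a sorted fraction, fewer cells of a type and less RNA per cell cannot be told apart.

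For Twist1 and Twist2, whose signals rose together in bulge, the 250 bases before the annotated gene start are shown because they hold the promoter-proximal sequence of both genes. The windows are from RefSeq on GRCm38.p6, at chr12:33957421-33957670 and chr1:91801211-91801460, both on the plus strand. Capitals mark matches on either strand to TATAAA and GGGCGG, and CANNTG was searched too. No match overlapped another.
Twist1: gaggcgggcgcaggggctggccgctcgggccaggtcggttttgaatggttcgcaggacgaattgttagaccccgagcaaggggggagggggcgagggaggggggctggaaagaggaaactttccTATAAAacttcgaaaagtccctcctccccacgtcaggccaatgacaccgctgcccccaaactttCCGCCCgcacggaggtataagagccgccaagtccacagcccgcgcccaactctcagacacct
Twist2: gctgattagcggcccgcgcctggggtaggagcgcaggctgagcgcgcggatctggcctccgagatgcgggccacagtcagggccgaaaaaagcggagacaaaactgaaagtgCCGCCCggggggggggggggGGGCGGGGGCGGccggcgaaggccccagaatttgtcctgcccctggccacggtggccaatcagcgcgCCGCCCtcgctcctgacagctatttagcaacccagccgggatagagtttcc

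The Twist1 window held 1 TATAAA and 1 GGGCGG, and the Twist2 window held 4 copies of GGGCGG. The E-box CANNTG, to which Twist proteins can bind, had no match in either window. Of 32851 windows of this length, 66.2% held CANNTG, 32.7% held GGGCGG and 12.4% held TATAAA. Twist1 and Twist2 windows had 18 and 23 CG dinucleotides, against a median of 6 over all windows. Windows were found for 4 of the 10 genes, and those of Prrx1 and Pdgfra, which lay inside the annotated gene, are not described. These matches describe the letters in the windows and were not tied to the signals.

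All 10 genes were higher in bulge than in HG, by 2.24 (Prrx1) to 4.60 (Lum) on the log2 scale, with a median of 2.55. The comparison used the 4 bulge and 4 HG arrays, paired by genotype and set, in a limma fit over all genes. At an adjusted p under 0.05, 10 of 10 genes passed in this direction, where 10.7% of the 12580 tested genes did so and the median of all genes was 0.02. The 10 genes were chosen with earlier results of these data known, so their count and this share are not an independent comparison. On the probe set used for each gene, the difference was positive in all 40 within-condition pairs, from 0.53 to 4.95. The lowest bulge array lay above the highest HG array for each gene. The share of all genes with such pairs or such a separation was not computed. Twist2 and Mfap4 had no HG array above the pooled median signal used as the filter, and Twist1 and Lox had 1, so these genes entered the fit through their bulge arrays. With no filter on low signal 6 of the 10 genes passed, and Twist2, Pdgfra, Dcn and Mmp2 did not.

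Against TK, which holds the whole sorted keratinocyte pool, the 10 genes were again all higher in bulge. The estimates ran from 1.12 (Mmp2) to 4.08 (Lum), with a median of 2.50 against 0.04 over all genes, and 14.7% of 12309 tested genes passed in this direction. Twist2 had no TK array above the filter, and Mfap4 and Lox had 1 each, so these genes entered this fit through their bulge arrays. Both comparisons share the bulge arrays, so they are not independent. Between HG and TK 8 of the 10 genes were tested, and only Mmp2 passed, lower in HG. There 6.09% of 11965 tested genes passed in this direction. The median difference of the 8 genes was -0.13, against 0.04 over all genes.

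**Figure D1:**
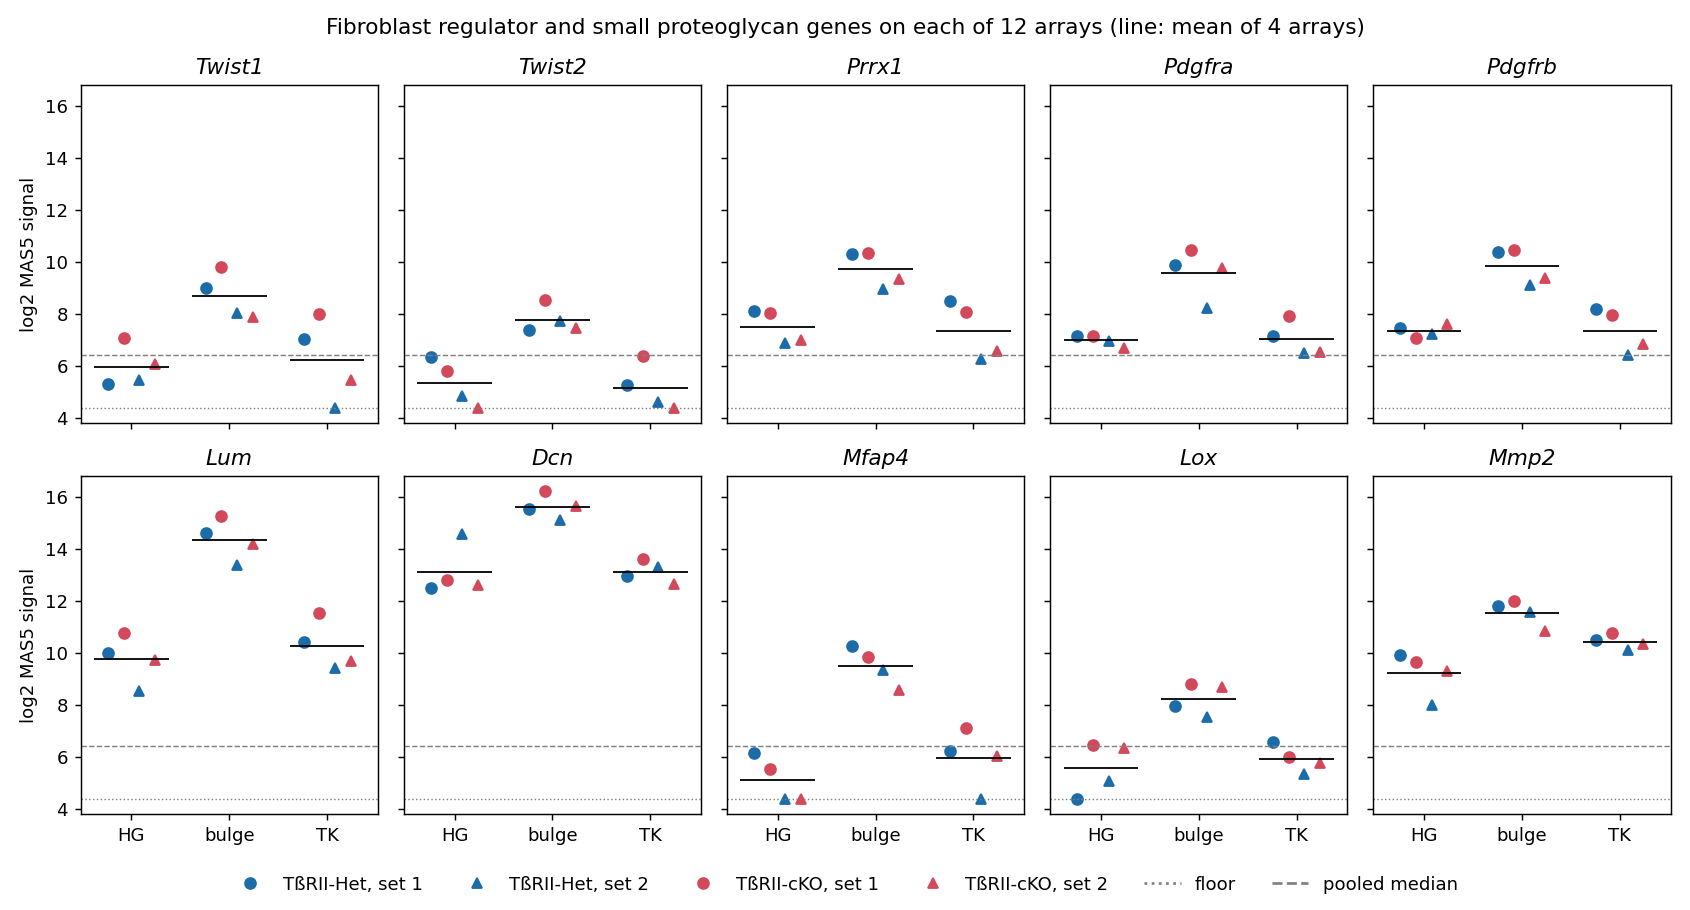
Each panel shows 1 gene, with the log2 MAS5 signal of 12 arrays by fraction; colour gives the genotype, shape the set, and the black line the mean of 4 arrays. For every gene the 4 bulge points lie above the 4 HG points, whereas HG and TK points overlap in all panels but that of Mmp2.

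Of the transcription factors, Twist1 was measured in bulge at 9.00 and 8.05 in TßRII-Het (sets 1 and 2) and at 9.79 and 7.89 in TßRII-cKO. In HG it lay at 5.29 and 5.45 in TßRII-Het and at 7.08 and 6.06 in TßRII-cKO. In TK it lay at 7.03 and 4.37 in TßRII-Het and at 7.97 and 5.44 in TßRII-cKO, where 4.37 is the floor. Bulge was above HG on every array, but the highest TK array lay above the lowest bulge array. Twist1 was 2.71 ± 0.35 higher in bulge than in HG (SE, 4 pairs; limma adjusted p = 9.64e-04), and 2.48 ± 0.33 higher than in TK (adjusted p = 3.87e-04).

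Twist2, a close relative of Twist1, lay at 7.36 and 7.73 in TßRII-Het bulge and at 8.53 and 7.46 in TßRII-cKO bulge. It lay at 4.37 to 6.34 in HG and at 4.37 to 6.37 in TK, where 4.37 is the floor, reached on 1 array of each, so its differences are lower bounds there. The bulge arrays did not overlap with the others. Twist2 was 2.44 ± 0.45 higher in bulge than in HG (adjusted p = 0.00575) and 2.62 ± 0.37 higher than in TK (adjusted p = 5.36e-04). Its bulge minus HG difference was smallest in TßRII-Het of set 1, at 1.02, and 2.73 to 3.09 in the other 3 conditions.

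Prrx1, a homeobox factor of limb and skin mesenchyme, lay in bulge at 10.31 and 8.95 in TßRII-Het and at 10.36 and 9.34 in TßRII-cKO. In HG its values were 8.12 and 6.87 in TßRII-Het and 8.01 and 6.99 in TßRII-cKO. In TK they were 8.49 and 6.27 in TßRII-Het and 8.08 and 6.57 in TßRII-cKO. In every fraction both set 1 arrays were above both set 2 arrays. The bulge minus HG difference hardly moved with condition, at 2.08 to 2.35, and gave an estimate of 2.24 ± 0.20 (adjusted p = 1.26e-04). Against TK it was 2.39 ± 0.22 (adjusted p = 4.32e-05).

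The receptors followed. Pdgfra, the receptor that marks dermal fibroblasts, lay in bulge at 9.88 and 8.22 in TßRII-Het and at 10.47 and 9.77 in TßRII-cKO. Its HG values were close together, at 7.15 and 6.96 in TßRII-Het and at 7.15 and 6.70 in TßRII-cKO. The TK values were 7.14 and 6.48 in TßRII-Het and 7.93 and 6.52 in TßRII-cKO. Bulge was higher than both other fractions on every array, with the activated TßRII-Het array lowest among the 4. The difference was 2.59 ± 0.34 from HG (adjusted p = 9.77e-04) and 2.57 ± 0.26 from TK (adjusted p = 7.11e-05). Without TßRII-Het of set 2 it was 3.04 from HG.

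Pdgfrb, the receptor of pericytes and of fibroblasts, lay in bulge at 10.39 and 9.12 in TßRII-Het and at 10.44 and 9.36 in TßRII-cKO. It lay at 7.07 to 7.62 in HG and at 6.40 to 8.17 in TK. The bulge arrays stood above all others, and both set 1 bulge arrays above both set 2 bulge arrays. Pdgfrb was 2.49 ± 0.30 higher in bulge than in HG (adjusted p = 6.66e-04) and 2.49 ± 0.19 higher than in TK (adjusted p = 1.55e-05).

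Lum showed the widest gap. In bulge it lay at 14.60 and 13.38 in TßRII-Het and at 15.24 and 14.16 in TßRII-cKO. In HG its values were 9.97 and 8.53 in TßRII-Het and 10.75 and 9.71 in TßRII-cKO. In TK they were 10.41 and 9.42 in TßRII-Het and 11.53 and 9.69 in TßRII-cKO. The lowest bulge array was 1.85 above the highest array of the other fractions. Lum was 4.60 ± 0.15 higher in bulge than in HG (adjusted p = 8.57e-07), a 24.3-fold difference that ran from 4.45 to 4.85 over the conditions. Against TK the difference was 4.08 ± 0.16 (adjusted p = 1.54e-06).

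Dcn, the other member of the proteoglycan pair, lay in bulge at 15.53 and 15.09 in TßRII-Het and at 16.21 and 15.63 in TßRII-cKO. In HG it lay at 12.48 and 14.56 in TßRII-Het and at 12.81 and 12.61 in TßRII-cKO. In TK it lay at 12.93 and 13.27 in TßRII-Het and at 13.60 and 12.64 in TßRII-cKO. The activated TßRII-Het HG array was far above the other 3 HG arrays and close to the lowest bulge array. Dcn was 2.50 ± 0.41 higher in bulge than in HG (adjusted p = 0.0034), with pair differences of 3.02 to 3.40 in 3 conditions and 0.53 in TßRII-Het of set 2. Without that condition the estimate was 3.16, and with the mean of both probe sets it was 2.00 and not called (adjusted p = 0.0691). Against TK it was 2.51 ± 0.18 (adjusted p = 9.69e-06).

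Mfap4, which sits on the microfibrils of elastic fibres, lay in bulge at 10.24 and 9.32 in TßRII-Het and at 9.82 and 8.56 in TßRII-cKO. In HG it lay at 6.13 and 4.37 in TßRII-Het and at 5.52 and 4.37 in TßRII-cKO. In TK it lay at 6.23 and 4.37 in TßRII-Het and at 7.10 and 6.03 in TßRII-cKO. Both set 2 HG arrays and 1 TK array were at the floor, so differences from them are lower bounds. Mfap4 was 4.38 ± 0.30 higher in bulge than in HG (adjusted p = 2.81e-05) and 3.55 ± 0.38 higher than in TK (adjusted p = 1.01e-04).

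Lox, the founding lysyl oxidase, lay in bulge at 7.95 and 7.50 in TßRII-Het and at 8.78 and 8.68 in TßRII-cKO. It lay at 4.37 to 6.46 in HG, with TßRII-Het of set 1 at the floor, and at 5.31 to 6.54 in TK. The bulge arrays did not overlap with either. Lox was 2.67 ± 0.36 higher in bulge than in HG (adjusted p = 0.00115) and 2.33 ± 0.33 higher than in TK (adjusted p = 5.66e-04).

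Mmp2, which cleaves type IV collagen and gelatin, was the gene that also separated HG from TK. In bulge it lay at 11.79 and 11.54 in TßRII-Het and at 11.98 and 10.84 in TßRII-cKO. In HG it lay at 9.91 and 7.99 in TßRII-Het and at 9.63 and 9.30 in TßRII-cKO, and in TK at 10.46, 10.12, 10.77 and 10.32 in the same order. Every HG array was below every TK array, and the lowest bulge array was 0.07 above the highest TK array. Mmp2 was 2.33 ± 0.29 higher in bulge than in HG (adjusted p = 7.85e-04), 1.12 ± 0.18 higher than in TK (adjusted p = 0.00134), and in HG fell by 1.21 ± 0.24 relative to TK (adjusted p = 0.0148). Without TßRII-Het of set 2 it was 1.92 higher in bulge than in HG, and the difference of HG from TK was -0.90, both called. The HG against TK call ended without the pairing by condition, without the filter, with an untrended variance and without TßRII-cKO of set 2.

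**Figure D2:**
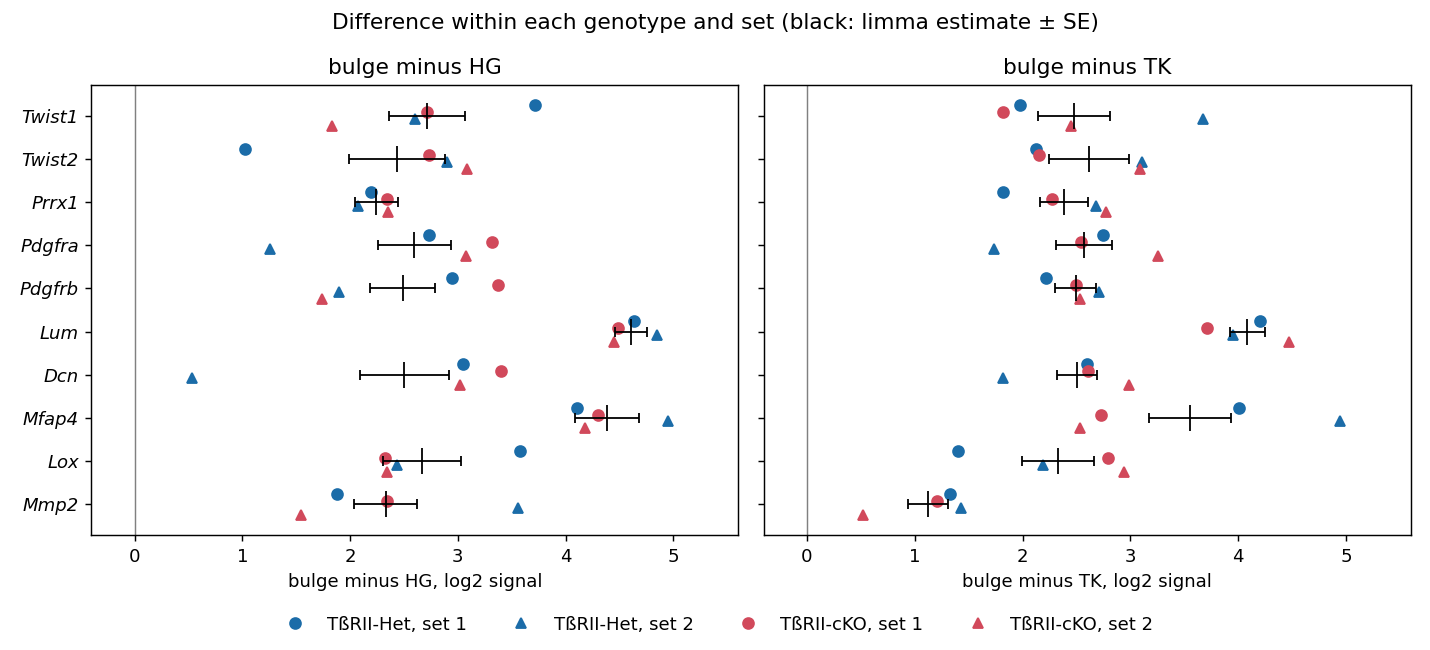
Bulge minus HG (left) and bulge minus TK (right) in log2 signal for each gene, with 1 point for each genotype and set and the limma estimate ± SE in black. All points lie to the right of 0, Lum and Mfap4 lie farthest out against HG, and Dcn in TßRII-Het of set 2 lies at 0.53.

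In both bulge comparisons the estimates of the tested probe sets of 1 gene had the same sign. A single pair could differ: in TßRII-Het of set 2 the second Dcn probe set had a signal of 19.9 in bulge and 116 in HG. Of 22 probe sets, 17 were tested in bulge against HG. Of these, 14 were called higher and none lower, and the 3 not called were second-line probe sets of Dcn (adjusted p = 0.25), Pdgfrb (1.09, adjusted p = 0.22) and Prrx1 (1.41, adjusted p = 0.095). Against TK 16 of 17 were called higher, the exception being the same probe set of Pdgfrb (0.93, adjusted p = 0.24). Both Mmp2 probe sets were higher in bulge than in HG, by 2.33 and 2.23, and both lay lower in HG than in TK, by 1.21 (adjusted p = 0.0168) and 1.03 (adjusted p = 0.063). The share called of all probe sets tested, 26694 against HG and 25645 against TK, was not computed. Some of the called probe sets entered the fit against HG through their bulge arrays. Among them were a second probe set of Pdgfra and one of Prrx1, with highest HG signals of 41.9 and 46.5. Probe sets of 1 gene share its RNA and are not replicates.

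The genes varied together across arrays. The Pearson correlation of each gene with the mean standardized profile of the other 9, over 12 arrays that share the fraction structure, was highest for Lum (0.988), Pdgfra (0.961) and Pdgfrb (0.959). It was lowest for Mmp2 (0.806) and Dcn (0.821). Among 12728 other genes passing the filter, the 10 with the profile most like the mean of the 10 genes were Cpz (0.992), Serping1 (0.991), Htra3 (0.988), Serpinf1 (0.987), Loxl1 (0.983), Cyp2f2 (0.983), Pcolce (0.981), Aebp1 (0.981), Scara5 (0.980) and Col6a3 (0.978). Several of these are secreted matrix or protease-inhibitor genes, such as Pcolce, an enhancer of procollagen processing, and Serping1, the C1 inhibitor of complement. They lay 2.01 (Col6a3) to 3.81 (Scara5) higher in bulge than in HG, and these likenesses are descriptions across arrays that differ mostly by fraction.

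Other matrix and fibroblast genes were read as whole lists, which were also chosen with earlier results of these data known. In bulge against HG, 9 of 10 fibrillar and associated collagens were called higher and none lower, with Col1a1 at 3.92 ± 0.21 (adjusted p = 8.09e-06) and Col6a1 at 3.78 ± 0.25 (adjusted p = 2.20e-05). The tenth, Col14a1, differed by 0.16. Of the other small leucine-rich proteoglycans, 7 of 10 were tested and 6 were called higher, led by Aspn (3.54) and Ogn (3.29). Kera and Epyc, which follow Dcn and Lum on chromosome 10 with no protein-coding gene between them, were at or below the pooled median on all 12 arrays. Of 16 other fibroblast markers measured, 15 were tested and 10 called higher, among them Pi16 (4.39), S100a4 (4.24) and Dpt (3.64).

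Elastic fibre and lysyl oxidase genes were less uniform, with 7 of 13 called higher and 1 lower. Pcolce (3.78), the microfibril gene Mfap5 (3.21) and Loxl1 (2.99), the closest relative of Lox in elastic fibres, were higher, and Mfap2 was lower (-0.96). Of 9 metalloproteinases and inhibitors tested, 5 were higher and none lower, including Mmp14, the membrane protease that activates Mmp2, Mmp3 (2.14), and the inhibitors Timp2 (2.36) and Reck (2.70). Of the 4 ligands of the Pdgf receptors, Pdgfd was higher in bulge (1.95 ± 0.49, adjusted p = 0.0231) and Pdgfc lower (-2.03 ± 0.29, adjusted p = 0.00159). Pdgfa (0.08) and Pdgfb (-0.01) did not pass. Of 10 further mesenchymal transcription factors and partners tested, Ebf1 (2.20), Meox2 (1.83) and Tbx15 (1.81) were higher and none was lower.

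Markers of other cell types were read beside these genes, against 10.7% of all tested genes called higher in bulge than in HG and 8.45% called lower. A count of 1 in 7 to 9 is near these shares. Of 7 dermal papilla markers tested, 1 was higher (Lepr) and 1 lower (Rspo3). The list was mixed in level. Sox2, Corin, Hey2 and Tbx18 were at or below the pooled median on all bulge and HG arrays. Crabp1 (9.66 to 11.06), Lepr (8.81 to 10.40) and Vcan (7.07 to 7.68) lay above that median on all bulge arrays. None of 7 smooth muscle and dermal sheath markers was called. Of 7 pericyte markers 3 were higher, Kcnj8 (2.86), Cd248 (2.78) and Abcc9 (2.01), whereas Higd1b and Vtn were at or below the pooled median in all bulge arrays. Of 7 endothelial markers 1 was higher (Eng, 1.05), and Pecam1, Tie1 and Flt1 were at or below the pooled median throughout bulge and HG. The 7 endothelial estimates were all positive, from 0.32 to 1.36. Of 8 melanocyte markers 6 were lower in bulge, led by Tyrp1 (-3.69), and 1 was higher (Mitf). Of 9 immune markers 1 was higher (Lyz2, 1.13). Against TK, 14.7% of all tested genes were called higher in bulge, and 4 of 7 endothelial markers were (Cdh5, Kdr, Emcn and Eng). Of 7 pericyte markers 4 were higher than in TK and 1 lower, and of 6 dermal papilla markers 3 were higher and 1 lower. None of 6 smooth muscle and dermal sheath markers was called against TK, and of 9 immune markers 1 was lower and none higher.

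The epithelial genes of the bulge were present on the same arrays. The summed signal of 12 keratinocyte markers was 303743 to 377901 in bulge, 142346 to 317622 in HG and 247656 to 285920 in TK, and 1 of the 12 (Epcam, 0.50) was called between bulge and HG. Of 8 bulge stem cell factors 6 were higher in bulge, among them Nfatc1 (3.26) and Sox9 (3.22). The summed signal of the 10 fibroblast genes was 51169 to 125374 in bulge, 8293 to 25246 in HG and 8965 to 18423 in TK. The part of fibroblast or other dermal cells in the bulge signal was not tested.

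**Figure D3:**
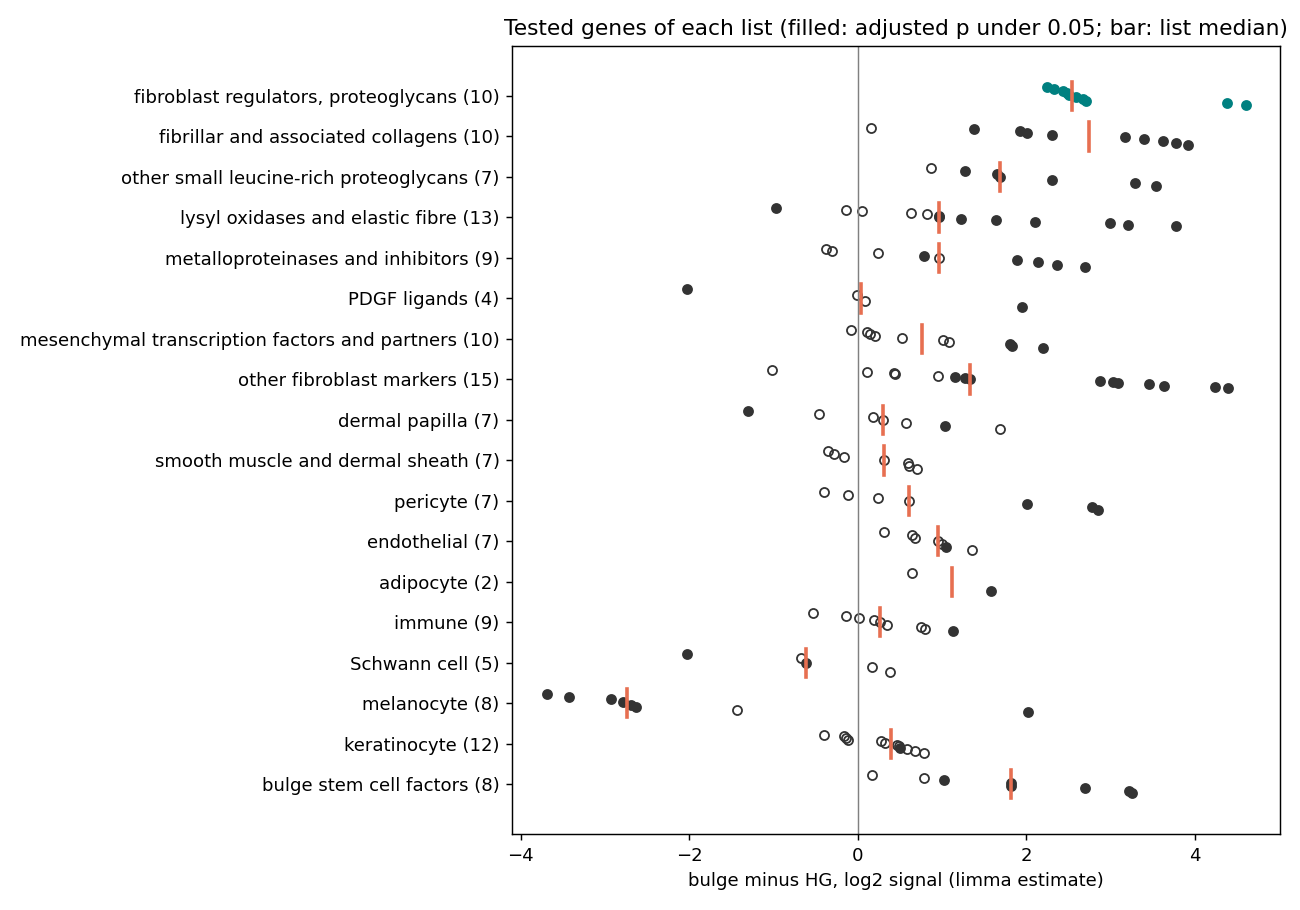
Bulge minus HG in log2 signal for every tested gene of each list, with the number tested in brackets, filled points at adjusted p under 0.05 and the list median as a bar. The 10 fibroblast regulator and proteoglycan genes, the collagens and the bulge stem cell factors lie to the right, melanocyte genes to the left, and keratinocyte and smooth muscle genes around 0.

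The genotypes were compared on all 12 arrays within each fraction and set. None of the 10 genes passed, and 0% of the 12738 genes tested by limma passed at an adjusted p under 0.05, although 1098 had an unadjusted p under 0.05. The median of the 10 genes was 0.15 against 0.01 over all genes. The estimates farthest from 0 were Lox at 0.87 ± 0.34 (adjusted p = 0.56), Twist1 at 0.84 ± 0.28 (adjusted p = 0.52) and Lum at 0.80 ± 0.14 (adjusted p = 0.26), all higher in TßRII-cKO. Lum was higher in TßRII-cKO in 6 of 6 array pairs, by 0.27 to 1.18. Pdgfra stood at 0.45 ± 0.25 (adjusted p = 0.62), with 0.58 and 1.56 in the bulge pairs and -0.26 at the lowest in HG. Pairs in bulge and in TK were positive for 15 of 20 values each and in HG for 10 of 20. Over all 12738 genes, 46.6% to 52.7% were lower in TßRII-cKO in the bulge and TK pairs, and 44.2% and 49.0% in the HG pairs. The 10 genes varied together across arrays, so the 20 values are not independent. The interaction of fraction with genotype, which asks whether bulge minus HG differed between genotypes, called 0 of 12738 genes (1004 at an unadjusted p under 0.05), and was farthest from 0 for Dcn (1.42 ± 0.49, adjusted p = 0.52) and Pdgfra (1.20 ± 0.57, adjusted p = 0.65).

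The sets carry the labelled states of HG and bulge. Each genotype had a single set for each state, so the state itself was not replicated. The p-values of the set comparisons within a genotype rest on how alike the set difference was in HG and in bulge. They do not measure the spread between sets of the same state. In TßRII-Het, set 2 (activated) against set 1 (quiescent) over HG and bulge called Lum lower (-1.33 ± 0.21, adjusted p = 0.0356) and no other of the 10 genes. There 0.636% of 12580 tested genes passed in this direction. Prrx1 (-1.30 ± 0.28, adjusted p = 0.086), Mfap4 (-1.34 ± 0.42, adjusted p = 0.18) and Mmp2 (-1.08 ± 0.41, adjusted p = 0.24) did not pass, and Dcn stood at 0.82 ± 0.59 (adjusted p = 0.51). Leaving out any of 6 of the 8 arrays ended the Lum call. Each such fit leaves 1 condition with a single array. Without the TßRII-Het bulge array of set 2, activated TßRII-Het rests on its HG array alone, so only estimates are given. These were -1.50 for Lum, -1.90 for Mmp2, -0.03 for Pdgfra and 2.13 for Dcn. Without the TßRII-Het HG array of set 2 they were -1.17 for Lum, -0.26 for Mmp2, -1.82 for Pdgfra and -0.49 for Dcn. In TßRII-cKO, aberrantly quiescent against quiescent called 0 of 12580 genes with limma (780 at an unadjusted p under 0.05), with Lum at -1.06 ± 0.21, Twist1 at -1.46 ± 0.50, Mfap4 at -1.21 ± 0.42 and Prrx1 at -1.02 ± 0.28 (adjusted p = 0.69 to 0.79). The interaction of set with genotype called 0 genes (918 at an unadjusted p under 0.05). Its counts without 1 array are not given, because such a fit leaves a condition of the term with a single array. The TßRII-cKO set difference called 91 genes without the TßRII-Het bulge array of set 2 and 77 without the TßRII-Het HG array of set 2. The interaction of fraction with set called 0 (832 at an unadjusted p under 0.05). The 10 genes ranged from -1.21 (Dcn) to 0.49 (Pdgfrb) in the set by genotype term.

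TK arrays, to which no state was given, went the same way between sets. Set 2 was below set 1 in TK for 19 of 20 values, with a median of -1.36. In bulge it was below for 19 of 20 values (median -1.12), and in HG for 16 of 20 (median -0.78). In the same 6 pairs the median of all 12738 genes lay between -0.15 and -0.03. A comparison of the sets over all 12 arrays within fraction and genotype, chosen after these values were seen, called 4 of the 10 genes lower. These were Twist1 (-1.48 ± 0.36, adjusted p = 0.0445), Prrx1 (-1.40 ± 0.19, adjusted p = 0.0139), Lum (-1.27 ± 0.13, adjusted p = 0.00395) and Mfap4 (-1.34 ± 0.24, adjusted p = 0.0241). There 3.09% of 12738 tested genes passed in this direction. What arrays of a set share was not given in the sources used here. In TK the set difference over all genes correlated at 0.399 between the genotypes, so the 6 pairs of arrays may not be independent. Prrx1, Lum and Mfap4 were lower in set 2 in 6 of 6 pairs of arrays, and so were Pdgfra (-0.84 ± 0.23, adjusted p = 0.056) and Mmp2 (-0.74 ± 0.21, adjusted p = 0.065), which did not pass. Without the TßRII-Het TK arrays 1 of the 10 genes was called, and without the TßRII-Het bulge arrays 2. The Twist1 call held under 1 of 13 alternatives, with estimates from -1.81 to -0.95. Lox (-0.25 ± 0.29) and Dcn (0.04 ± 0.32) lay nearest to 0.

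The lists moved with the set in the same fit. Of the collagens 4 of 10 were called lower in set 2 (Col1a1, Col1a2, Col3a1 and Col6a3), of the smooth muscle and dermal sheath markers 4 of 7 (Acta2, Myh11, Actg2 and Itga8), of the other fibroblast markers 4 of 15, and of the keratinocyte and bulge stem cell lists none of 12 and none of 8. Of the other cell type lists, dermal papilla had 3 of 7 called lower, immune 1 of 9 and Schwann cell 1 of 5. The pericyte and endothelial lists had none of 7 each, melanocyte none of 8, and adipocyte and skeletal muscle none of 2 each. Over all tested genes 3.09% were called lower. No gene of these lists was called higher. The part of dermal cells in the set difference was not tested. The bulge array highest in 9 of the 10 genes was TßRII-cKO of set 1, with Mfap4 highest in TßRII-Het of set 1, and the TK array lowest in 8 was TßRII-Het of set 2.

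**Figure D4:**
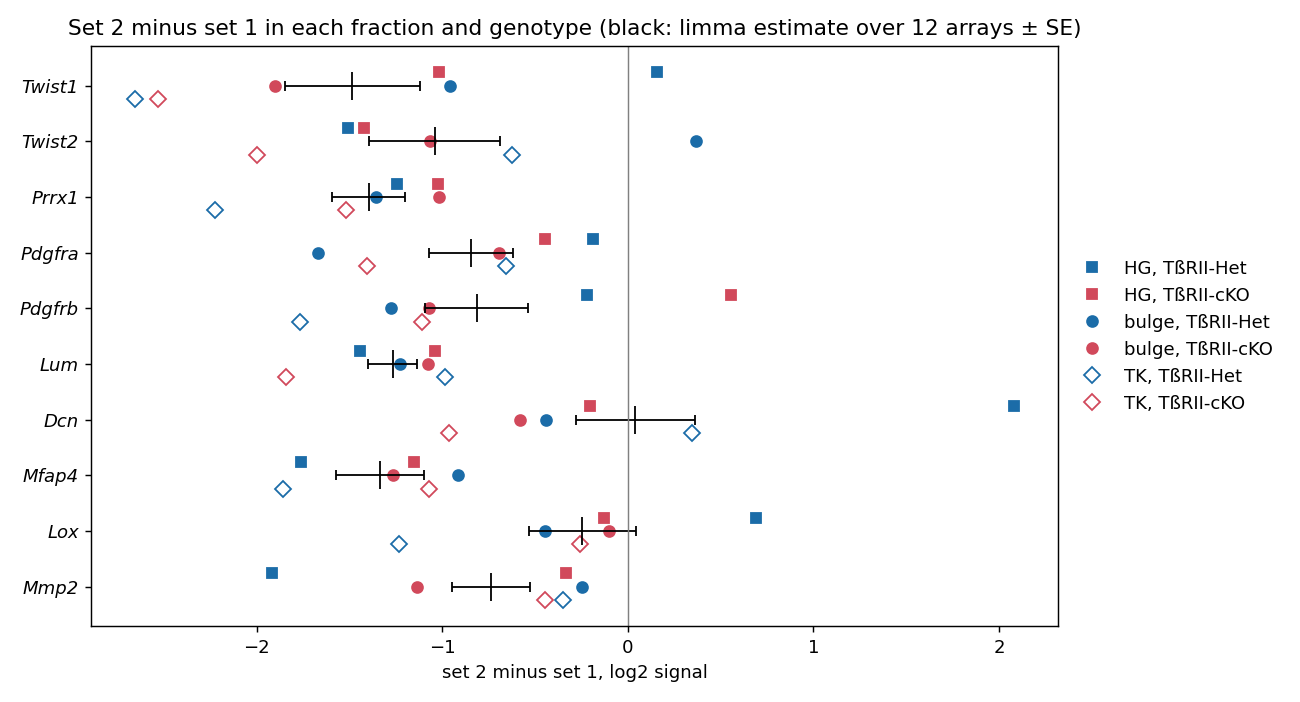
Set 2 minus set 1 in log2 signal for each gene, with 1 point for each fraction and genotype and the limma estimate over 12 arrays ± SE in black. Most points lie left of 0, those of Prrx1, Lum, Mfap4, Pdgfra and Mmp2 without exception, and Dcn in TßRII-Het HG lies to the right at 2.08.

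Dcn and Lum, neighbours on chromosome 10, parted most on a single array. In TßRII-Het HG, set 2 minus set 1 was 2.08 for Dcn and -1.44 for Lum, differences between single arrays without a test. In TßRII-Het TK it was 0.35 for Dcn and -0.98 for Lum, and in the other pairs of arrays it was negative for both. The array described next is the TßRII-Het HG array of set 2. The second Dcn probe set was highest there too among the HG arrays, with a signal of 116 against 6.79 to 63.6. On the same array the proteoglycan Bgn, at 11.40 against 9.80 to 10.38, and the collagen Col14a1 were also highest of the 4 HG arrays. There 5 of 7 other small leucine-rich proteoglycans and 6 of 10 collagens were lowest of the 4. The mean log2 signal of the other 9 genes was 6.37 there, the lowest of the 12 arrays, with TßRII-Het TK of set 2 next to it at 6.38. Of 12 keratinocyte markers, 9 were also lowest of the 4 HG arrays there.

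**Figure D5:**
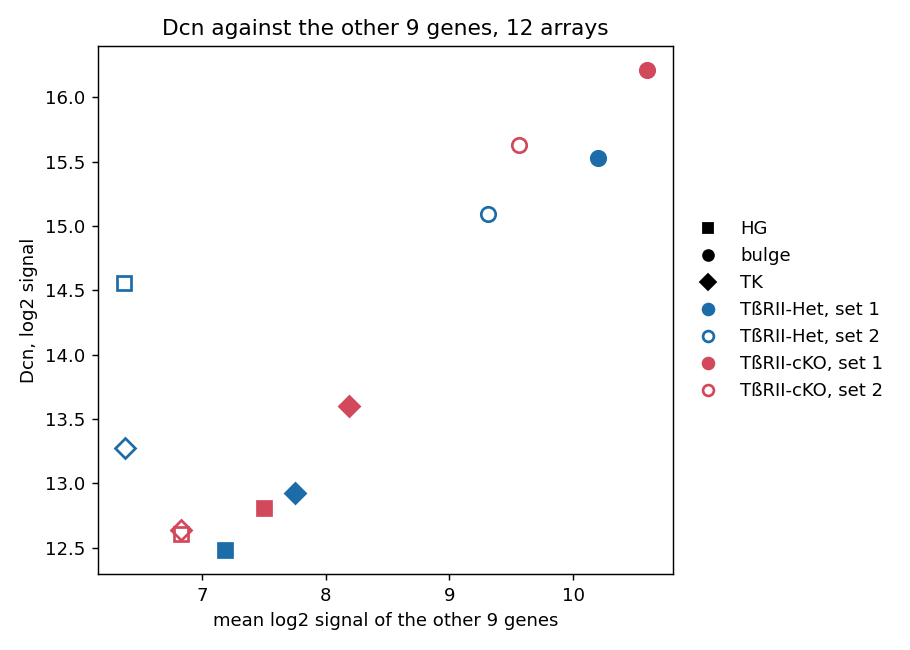
Log2 signal of Dcn against the mean log2 signal of the other 9 genes on 12 arrays, with shape for the fraction, colour for the genotype and open symbols for set 2. The 4 bulge arrays lie at the upper right, and the open HG square of TßRII-Het of set 2 lies at 14.56 on the Dcn axis at the lowest value of the other genes.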

How the data were processed

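Gene expression had been measured on 12 arrays, 1 for each of 3 fractions, 2 genotypes and 2 sets. The deposited values are MAS5 signal intensities on a linear scale, which the authors made with MAS5 per the submitters' processing notes, version not given in the sources used here. In the values each array has a mean of 500 after trimming 2% at each end, so no further normalization was added. Array medians were 64.1 to 109. Precision rests on the small number of arrays.

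Of 45037 probe sets that are not controls, 34945 had 1 symbol, 932 several and 9160 none. Each gene was read from its probe set of highest mean log2 signal, which gave 18193 genes. Signals under the pooled 25th percentile (20.7) were set to it, which is the floor of 4.37 on the log2 scale, so differences from the floor are lower bounds. A gene was tested if 2 or more arrays of the fit exceeded the pooled median (84.7).

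Comparisons used limma 3.58.1 in R 4.3.3 (two-sided; lmFit and trended eBayes), and p-values were adjusted by Benjamini-Hochberg over all tested genes, with a threshold of 0.05. Fractions were compared with the genotype and set condition as a block, genotypes with fraction and set as a block, and sets within genotype with fraction as a term. The block follows the design. Over 12738 genes, deviations of same-condition arrays from their fraction means correlated at 0.0768 to 0.284 (HG and bulge), -0.00472 to 0.576 (HG and TK) and -0.157 to 0.249 (bulge and TK), so the data alone do not show the pairing. The set 1 minus set 2 differences of TK correlated at 0.399 between the genotypes. The fits were tested on simulated data.

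The 10 genes and the lists were chosen with earlier results of these data known. Named genes were the 10 genes, Cd34, Cdh3 and Tgfbr2, the list genes with the largest bulge minus HG difference, and the 10 other genes most correlated with the mean profile. Cell types other than fibroblasts were read from marker lists.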

Additional observations from a re-analysis of the deposited data

Results flagged for a closer look

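Of 30 groups of 4 arrays examined, for the 10 genes in 3 fractions, 1 held an array far from the others by Dixon's criterion, and chance gives about 1 in 20. Dcn in HG was 14.56 in activated TßRII-Het of set 2, against 12.48 to 12.81 on the other 3 HG arrays, a gap of 0.842 of the range.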

How the results depend on the processing

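In bulge against HG, all 10 genes were called under 10 of 13 alternatives. The count was 8 with the mean of all probe sets, where Dcn was not called and Lox not tested, 8 with the filter at the 75th percentile, where Twist2 and Lox were not tested, and 6 with no filter. In bulge against TK 8 to 10 were called under 13 alternatives. In HG against TK the call of 1 gene (Mmp2) became 0 with no filter, without the variance trend and with no replicate block, and was 0 to 1 when a condition was left out. The paired analysis otherwise changed no call of the 10 genes: with no replicate block 10 were called in bulge against HG, 10 in bulge against TK and 0 between genotypes. The genotypes called 0 of the 10 under 14 alternatives, and Pdgfra was -0.036 with the mean of its probe sets.

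In the sets of TßRII-Het, the count of 1 was 0 with the floor at the pooled median, with the mean of all probe sets, with no filter and without the trend. It was 2 with all 12 arrays in 1 fit. Counts without 1 array are not given, because such a fit leaves a condition with a single array. Dcn there was -0.49 without the TßRII-Het HG array of set 2 and 2.13 without its bulge array. In TßRII-cKO the count of 0 was 1 with all 12 arrays, and 1 without either the HG or the bulge array of TßRII-Het of set 2. Over all fractions, the count of 4 was 2 with the floor at the pooled median, 0 with no filter, 2 with the filter at the 75th percentile, and 1 to 5 when a fraction of a genotype was left out. Dcn there was -0.012 with quantile normalization, -0.11 with the mean of probe sets, and -0.37 to 0.24 when a fraction of a genotype was left out. The cause of these changes was not tested.

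Over all genes, the calls ran from 643 to 2999 in bulge against HG (2414 as reported), 1560 to 3124 in bulge against TK (3218) and 0 to 1704 in HG against TK (1433). They ran from 0 to 91 between sets of TßRII-cKO (0) and from 0 to 669 over all fractions (649). Between sets of TßRII-Het (88) and in the set by genotype term (0) the count also moved. It was highest there in a fit that leaves a condition with a single array. Signals near the floor limit Twist1, Twist2, Mfap4 and Lox.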
